A study of Arabidopsis thaliana with 6 samples.

Results

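The nuclear genes annotated as proteins of the large ribosomal subunit were followed in developing seeds of Arabidopsis thaliana. Their members were the loci whose annotation in the deposited table reads "ribosomal protein L" followed by a digit, with loci of the plastid and mitochondrial genomes left out, and they numbered 179 of 34001 loci. RNA came from dissected seeds 13 days after flowering, with 2 libraries each of the lines ar21 and i4g1 and of wild type (WT), all in strain Columbia-0. The labels give no allele, transgene or treatment, and they state replicates and pools of seeds without saying whether the pools came from separate plants or growths. The line names point to eIFiso4G1 (AT5G57870), the scaffold of a plant cap-binding complex of translation initiation; that reading comes from knowledge of the field and not from the labels. AT5G57870 had normalised counts of 116 and 123 in ar21, 24.5 and 45.6 in i4g1, and 368 and 454 in WT. Its log2 fold change against WT was -1.77 ± 0.24 in ar21 (SE, limma adjusted p = 0.000717) and -3.57 ± 0.24 in i4g1 (adjusted p = 8.97e-06).

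Only 9 of the 179 annotations hold the words chloroplast, plastid, 50S or mitochondrial. All members were therefore also sorted by protein family and locus. A family here holds only genes whose annotation matched, so any paralog annotated in other words is not counted. The cytosolic type had 90 genes of 33 families, the plastid type 20 genes, and the mitochondrial type together with bacterial-type proteins of no stated compartment 45 genes. Another 24 genes matched the annotation text but are small-subunit S12 genes or proteins that carry only a ribosomal protein domain, and they are kept apart.

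The large subunit forms the peptide bond and holds the tunnel through which the new chain leaves. Arabidopsis encodes nearly every cytosolic ribosomal protein by several paralogs whose proteins are close to identical, and loss of a single paralog is known to alter leaf shape, embryo development or the translation of particular messages. Plastids and mitochondria have ribosomes of bacterial type, and most of their proteins come from nuclear genes. Promoters of plant ribosomal protein genes are known for the telo-box and for site II elements, which were described in genes active in dividing cells.

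The promoters of cytosolic-type members held these elements more often than promoters in general. The telo-box AAACCCTA, searched on both strands from 250 bases before to 50 bases after the annotated start, was present in 51 of 90 promoters (56.7%), against 6.22% of 27443 protein-coding genes. Site II, searched as GGCCCA, was present in 66 of 90 (73.3%), against 15.5% of all promoters. The TATA box TATAAA was present in 58 of 90 (64.4%), against 52.1%. Neighbouring matches of different motifs can share end bases. Below are the 28 bases around each telo-box of the members that rose most in either line and hold one, 7 of 12 such genes. The telo-box is in capitals, as AAACCCTA or, on the other strand, TAGGGTTT. Sequences here are from RefSeq's annotation of TAIR10.1 and run 5′ to 3′ along the gene's strand.
RPL13AC (chr4:7656606-7656633, - strand): aacccattttAAACCCTAgccttgtgtt
AT3G53430 (chr3:19810501-19810528, - strand): ggaacaaaagAAACCCTAatctcgacca
RPL18AC (chr3:4910646-4910673, + strand): agacggccccTAGGGTTTgtcctttaga
RPL16B (chr4:10302123-10302150, + strand): ttatttgaagAAACCCTAgtgtctttca
RPL9D (chr4:6464528-6464555, - strand): atataagcttTAGGGTTTtcttctctct
RPL17A (chr1:9515131-9515158, + strand): attcgccgatTAGGGTTTcttctgtttc
RPL12C (chr5:24381627-24381654, - strand): atttgcatttAAACCCTAgttaaacgca
RPL12C (chr5:24381596-24381623, - strand): taaaaagacgAAACCCTAgaagctgaga

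The telo-box lay close to the start, with a median first base 2 bases after it and 28 of 55 matches at or after the first transcribed base. Site II lay upstream, with a median 45 bases before the start over 104 matches. Restricted to the 250 bases before the start, the shares were 25.6% for the telo-box, against 4.49% of all promoters, and 58.9% for site II, against 13.7%. Small-subunit promoters were similar in kind, at 44.9% of 98 for the telo-box and 59.2% for site II. Small-subunit loci were picked by annotation text without the organelle words above and, unlike the cytosolic type, were not sorted by compartment. Plastid-type members had the telo-box in 4 of 20 promoters and site II in 4 of 20, and the mitochondrial and unplaced members had them in 5 and 18 of 45.

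**Figure D1:**
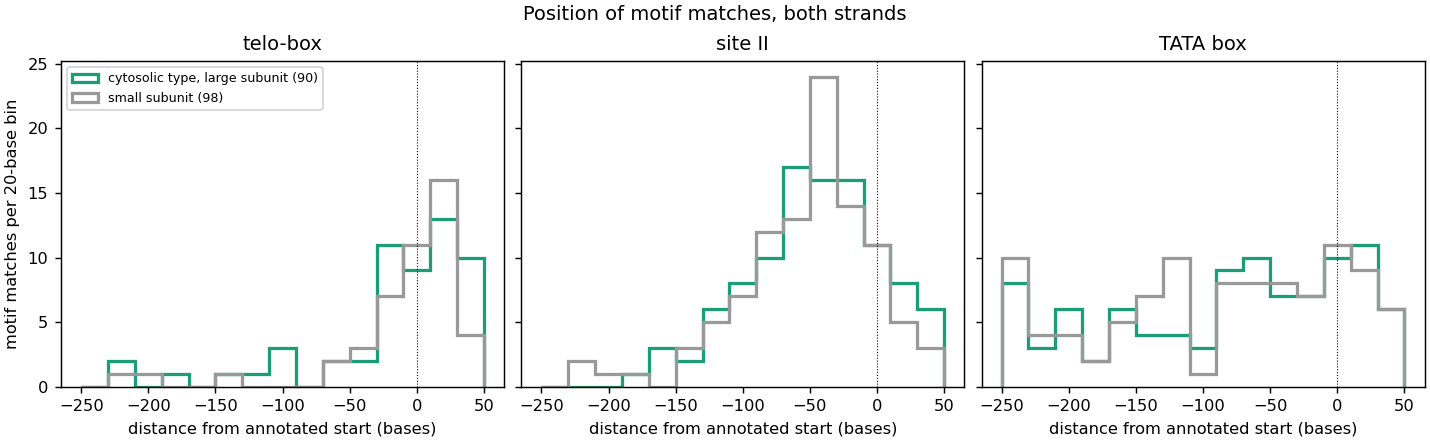
Histograms of motif matches per 20-base bin by distance in bases from the annotated start (0), both strands, in the 90 cytosolic-type large-subunit promoters (green) and 98 small-subunit promoters (grey). In the cytosolic type telo-boxes gather around the start (median 2) and site II upstream of it (median -45), while TATA boxes are spread over the window. Small-subunit genes were not sorted by compartment.

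Whole upstream stretches of 250 bases are shown for 4 members with different motif content and different changes. RPL16B (AT4G18730) rose in both lines and holds a telo-box. AT3G53430 rose in both lines and holds site II upstream, with its telo-box after the start. RPL34C (AT3G28900) holds neither motif and had the largest rise in i4g1. AT2G40205, an L41 gene, holds both motifs and was the only cytosolic-type member called lower. Telo-boxes and site II elements of either strand are in capitals, and each stretch ends at the base before the annotated start, in the build TAIR10.1.
RPL16B (chr4:10301913-10302162, + strand): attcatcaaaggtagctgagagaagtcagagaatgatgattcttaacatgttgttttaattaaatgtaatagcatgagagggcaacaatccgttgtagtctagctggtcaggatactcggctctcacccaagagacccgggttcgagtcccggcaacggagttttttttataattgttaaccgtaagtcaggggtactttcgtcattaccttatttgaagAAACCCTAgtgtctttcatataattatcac
AT3G53430 (chr3:19810521-19810770, - strand): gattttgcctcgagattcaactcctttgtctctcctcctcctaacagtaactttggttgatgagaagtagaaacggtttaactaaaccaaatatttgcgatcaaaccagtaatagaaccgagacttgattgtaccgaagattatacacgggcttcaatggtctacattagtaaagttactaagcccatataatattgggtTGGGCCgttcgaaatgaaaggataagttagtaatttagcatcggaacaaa
RPL34C (chr3:10904459-10904708, - strand): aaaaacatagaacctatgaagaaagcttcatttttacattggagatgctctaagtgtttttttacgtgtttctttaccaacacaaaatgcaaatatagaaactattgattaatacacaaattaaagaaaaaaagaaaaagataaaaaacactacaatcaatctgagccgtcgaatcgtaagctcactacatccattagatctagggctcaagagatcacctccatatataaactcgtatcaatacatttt
AT2G40205 (chr2:16792623-16792872, - strand): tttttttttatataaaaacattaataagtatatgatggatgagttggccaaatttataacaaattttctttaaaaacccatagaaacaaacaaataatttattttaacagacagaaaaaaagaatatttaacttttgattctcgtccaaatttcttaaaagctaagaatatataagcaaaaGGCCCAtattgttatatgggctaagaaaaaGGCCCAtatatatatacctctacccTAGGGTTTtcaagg

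Values are normalised counts, which are the authors' read counts divided by 1 factor per library. Log2 fold changes with standard errors (SE) and adjusted p-values are from limma on log2(normalised count + 1), fitted over 15591 loci with a mean of at least 10. A locus was called at a Benjamini-Hochberg adjusted p under 0.05, and fold changes on this scale understate those of low genes. The count tests edgeR and DESeq2, run as alternatives on reads recovered from the table, left out ar21 1. In them ar21 rests on 1 library. Libraries held 3418773 to 8435759 reads. The nuclear 18S rRNA locus took 30.0% and 19.8% of the reads in ar21, 11.5% and 3.90% in i4g1, and 40.8% and 60.7% in WT, which left 1344947 reads in WT 2 and at least 3070006 in every other library. Reads of the plastid and mitochondrial genomes moved the same way, with 49 of 82 tested plastid-genome loci and 17 of 25 mitochondrial-genome loci lower in ar21, and 74 and 22 lower in i4g1. Of all loci, 6.03% were called lower and 8.76% higher in ar21, and 9.86% and 12.5% in i4g1. The part of these shares in the results below was not tested. Of 10 embryo marker entries 4 were tested, and none was called in either line. The storage gene CRU2, a cruciferin, was at 45674 to 61878 in its main entry in every library. Its log2 fold change was -0.18 in ar21 and -0.12 in i4g1. OLEO1 was at -0.31 and 0.17, and CRA1, with 10.4 to 47.6 in its main entry, at -0.24 and -1.06. OLEO2 was at -0.47 and -0.57, and every mutant library lay below both WT libraries. The storage genes CRU3 and SESA1 were listed at or near 0 throughout, so a 0 in the table can be a failed estimate. Of 8 seed coat markers 7 were tested, and 3 were called higher and 1 lower in each line. These were MUM2 (2.70 in ar21 and 2.32 in i4g1), GATL5 (2.14 and 1.17), PER36 (1.134 and 1.198) and CHS (-0.48 and -0.45). The seed coat markers summed to 6616 and 6349 in ar21, 5712 and 5307 in i4g1, and 6131 and 6365 in WT, with none at 0 in every library. Of 5 endosperm markers 3 were tested, and none was called. RGE1 and ALE1, with normalised counts of only 6.09 to 34.2, were at 1.14 and 1.22 in ar21 and at 1.04 and 1.18 in i4g1. ATEPR1, with 81308 to 107060, was at 0.05 in ar21 and 0.02 in i4g1. The part of these markers in the results was not tested.

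Cytosolic-type genes made up a larger share of the nuclear reads in both lines than in WT. Without 18S rRNA and organelle loci, they took 2.12% and 1.87% of the reads in ar21, 1.97% and 1.87% in i4g1, and 1.18% and 1.36% in WT. Each of the 4 mutant libraries lay above both WT libraries, and the exact 95% intervals (Clopper-Pearson, counting error only) were at most 0.0205 percentage points wide on each side. The ratio of means was 1.57 for ar21 over WT and 1.51 for i4g1 over WT. In seeds sequenced whole, fewer cells of a type and less RNA per cell cannot be told apart.

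**Figure D2:**
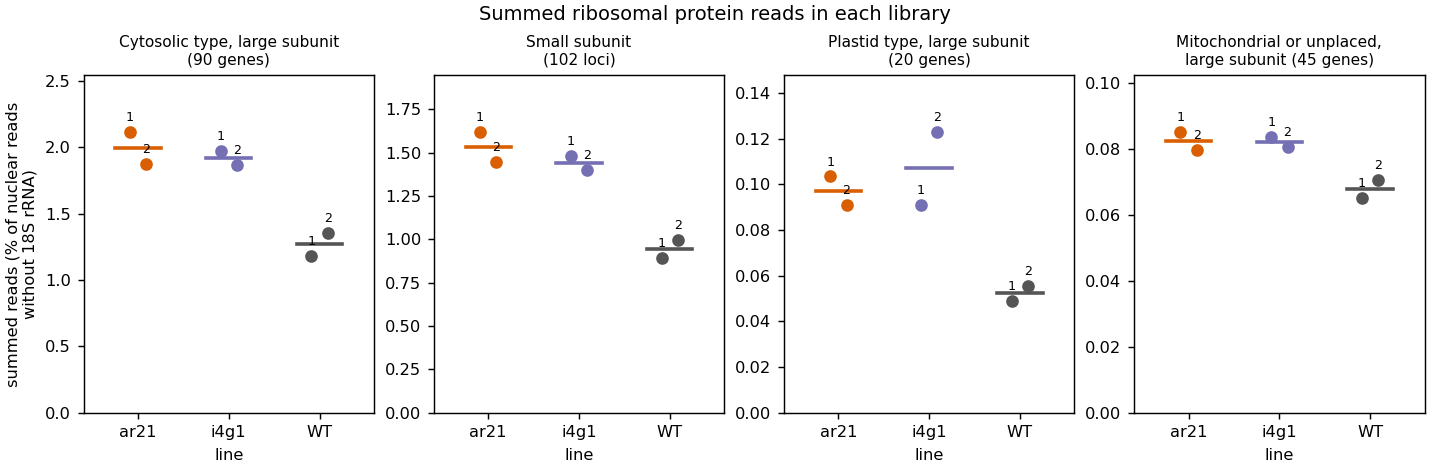
Summed reads of 4 groups of ribosomal protein genes as a percentage of nuclear reads without 18S rRNA, by line (points, replicates 1 and 2; bars, means; each panel has its own axis from 0). In each panel the 4 mutant libraries lie above both WT libraries, with means of 1.99% in ar21, 1.92% in i4g1 and 1.27% in WT for the cytosolic type. Small-subunit loci were not sorted by compartment.

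Of the 90 cytosolic-type genes, 83 passed the filter on low values. In ar21, 65 of the 83 rose and 0 fell, against 8.76% of all loci called higher and 6.03% called lower (14.8% called in all). Before adjustment 74 were higher and 0 lower at p under 0.05, and edgeR and DESeq2 called 0 lower as well. The median log2 fold change over the 83 was 0.68, which is 1.60-fold, against 0.01 over all loci. Both ar21 libraries exceeded both WT libraries for 77 of 83 members, against 30.4% of all loci. This count depends on the fit, since limma without an intensity trend called 5. It was also lower in limma without ar21 1, ar21 2 or WT 1. Fewer were called by edgeR and DESeq2 as well. Those fits left out ar21 1, and limma without ar21 1 was lower too, as given above. The part of the test and that of the library were not tested. Over the 6 limma fits that each left out 1 library the median ran from 0.56 to 0.72. In all 6 of them 10 calls were kept, those of RPL10AA, RPL9B, EMB2296, RPL18AB, RPL4A, RPL18AC, RPL30C, RPP0B, AT3G53430 and RPL7AB.

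In i4g1, 64 of the 83 rose and 1 fell, against 12.5% of all loci called higher and 9.86% called lower (22.4% called in all). The median was 0.68 here too, and 72 of 83 members did not overlap with WT and were higher, against 31.0% of all loci. Called higher were 56 members by edgeR, 49 by DESeq2 and 31 without an intensity trend, and 47 (without i4g1 1) to 65 (without i4g1 2) when 1 library was left out. In all 6 such fits 46 calls were kept. The comparisons share the WT libraries, so they are not independent of each other. In both lines 59 members rose, 6 rose in ar21 and were not called higher in i4g1, 5 the reverse, and 13 in neither. All 4 mutant libraries lay above both WT libraries for 71 members (85.5%), against 22.7% of all loci.

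**Figure D3:**
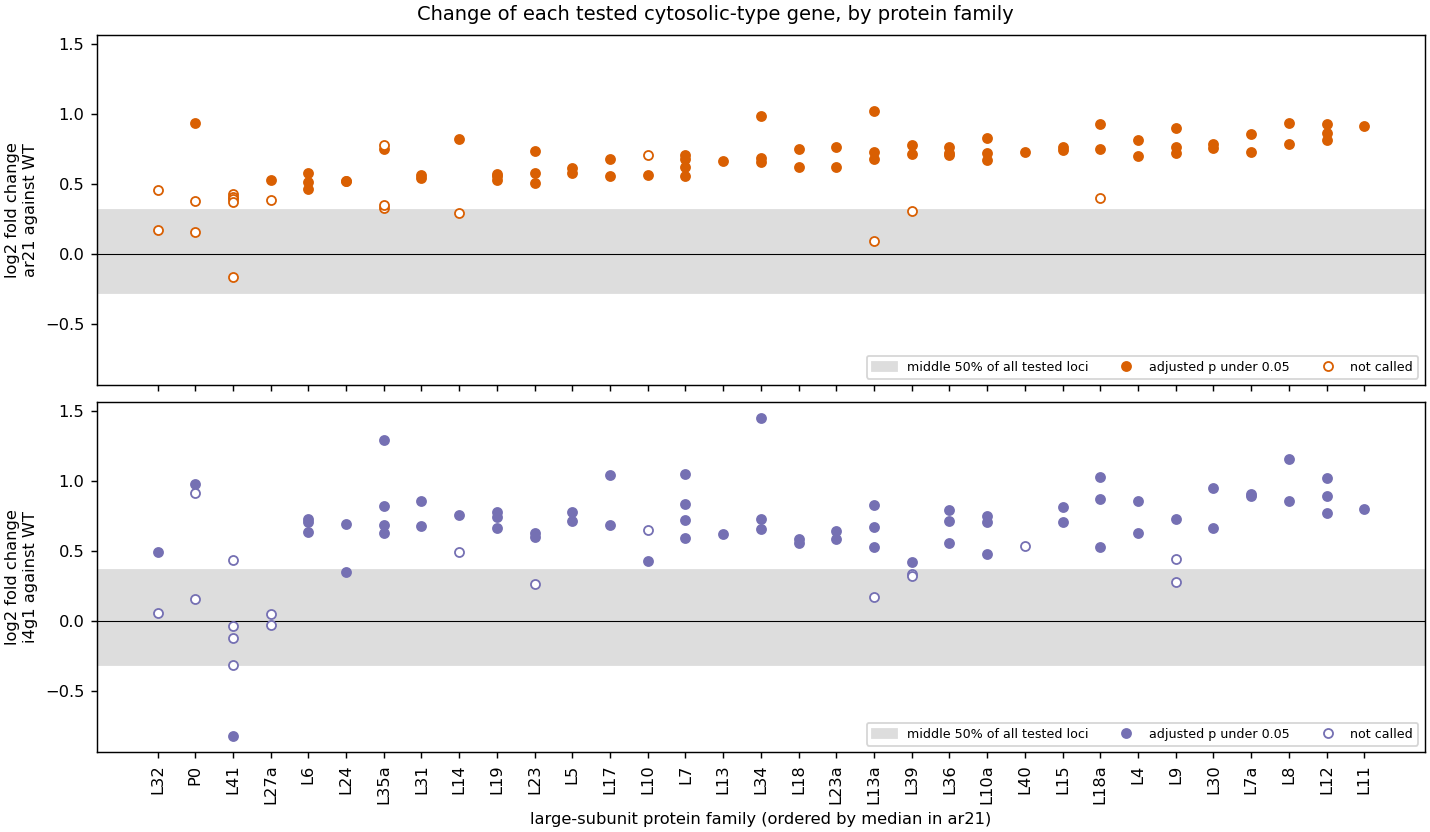
Log2 fold change against WT of each of the 83 tested cytosolic-type genes, by protein family, in ar21 (upper) and i4g1 (lower); filled points were called at an adjusted p under 0.05 and the grey band is the interquartile range of all tested loci. Most points lie near 0.7 in both panels, while L27a and all L41 genes but AT1G56045 (0.44) lie near or below 0 in i4g1.

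Calls followed the level of the gene among cytosolic-type members. Shares of all loci were not taken by level, so none stands beside these counts. The 8.76% and 12.5% called higher in ar21 and i4g1 cover all loci with a mean of at least 10. Of the 45 members with a mean of at least 500 normalised counts, 42 rose in ar21 and 42 in i4g1. Of the 33 between 100 and 500, 22 rose in ar21 and 20 in i4g1, and of the 5 below 100, 1 rose in ar21 and 2 in i4g1. The medians of these groups were 0.70, 0.66 and 0.70 in ar21 and 0.71, 0.62 and 0.67 in i4g1, from the highest to the lowest level, so the medians were close while the share of calls differed. Calls were also counted by promoter motif. Of 46 with a telo-box 34 rose in ar21 (73.9%) and 31 in i4g1 (67.4%), and of 37 without one 31 (83.8%) and 33 (89.2%) rose. Over all tested loci with a promoter, which include these members, 17.0% with a telo-box and 8.39% without one were called higher in ar21. In i4g1 the shares were 21.6% and 12.2%. With site II, 46 of 61 members rose in ar21 (75.4%) and 45 in i4g1 (73.8%). Without it, 19 of 22 (86.4%) rose in each line. For all tested loci with a promoter, the shares with and without site II were 9.19% and 8.81% in ar21, and 13.7% and 12.5% in i4g1.

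P0 and L12 form the base of the stalk, where elongation factors dock, and 4 of their 6 tested genes rose in both lines. Of 15591 loci, 1133 rose in both. RPP0B (AT3G09200), which encodes P0, the protein that anchors the acidic stalk proteins, had 3054 and 2572 in ar21, 3154 and 2661 in i4g1, and 1387 and 1551 in WT. It rose by 0.93 ± 0.14 in ar21 (limma adjusted p = 0.00127) and by 0.98 ± 0.14 in i4g1 (adjusted p = 0.000566), and the mutant and WT libraries did not overlap. Its lower paralog RPP0C (AT3G11250) had 146 and 152 in ar21, 148 and 109 in i4g1, and 113 and 115 in WT, and was not called. RPP0A (AT2G40010), at 12.1 and 25.6 in ar21, 24.5 and 38.2 in i4g1, and 10.97 and 22.40 in WT, overlapped with WT in ar21 and was not called in either line. L12 sits beside P0, and its gene AT3G53430 had 1179 and 1100 in ar21, 1234 and 998 in i4g1, and 601 and 594 in WT. AT3G53430 rose by 0.93 ± 0.13 (adjusted p = 0.000736) and 0.89 ± 0.13 (adjusted p = 0.000556). RPL12A (AT2G37190) rose by 0.81 and 0.77. RPL12C (AT5G60670), another L12 gene, had 225 and 191 in ar21, 258 and 207 in i4g1, and 97.5 and 132 in WT, and rose by 0.87 ± 0.18 (adjusted p = 0.00733) and 1.02 ± 0.18 (adjusted p = 0.00193). Of 9 tested genes for the acidic stalk proteins P1 to P3, 8 rose in ar21 and 5 in i4g1, with medians of 0.76 and 0.49. The shares of all loci called higher were 8.76% and 12.5%.

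Transcripts of the L5 genes and of the 1 L11 gene under the annotation rule rose in both lines. Both proteins bind 5S rRNA. RPL16B, an L11 gene of the partner of L5 on 5S rRNA, had 956 and 698 in ar21, 852 and 666 in i4g1, and 402 and 465 in WT. RPL16B rose by 0.92 ± 0.17 (adjusted p = 0.00365) and 0.80 ± 0.17 (adjusted p = 0.00528), and every mutant library lay above both WT libraries. ATL5 (AT3G25520), known for a leaf polarity mutant, had 2012 and 1807 in ar21, 2302 and 1985 in i4g1, and 1093 and 1417 in WT. Its log2 fold changes were 0.61 ± 0.15 (adjusted p = 0.0156) and 0.78 ± 0.15 (adjusted p = 0.00292). RPL5B (AT5G39740), the other L5 gene, rose by 0.58 in ar21 and 0.72 in i4g1. The ar21 calls of RPL16B and of both L5 genes were lost without ar21 1, and those of the L5 genes also without ar21 2 or WT 1.

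L8 and L10 reach the peptidyl transferase centre and L4 lines the tunnel. Both L8 genes above the filter rose. EMB2296 (AT2G18020), needed for embryo development, had 2272 and 2239 in ar21, 2499 and 2245 in i4g1, and 1174 and 1451 in WT, and rose by 0.79 ± 0.13 (adjusted p = 0.00255) and 0.86 ± 0.13 (adjusted p = 0.000948). Its paralog RPL8C (AT4G36130) was lower in level, with 413 and 381 in ar21, 535 and 401 in i4g1, and 182 and 235 in WT. RPL8C rose by 0.94 ± 0.16 (adjusted p = 0.00314) and 1.16 ± 0.16 (adjusted p = 0.000534). RPL4A (AT3G09630) and RPL4D (AT5G02870), the L4 genes, rose by 0.82 and 0.70 in ar21 and by 0.86 and 0.63 in i4g1. SAC52 (AT1G14320), the main L10 gene and the source of a suppressor of a stem-elongation mutant, had 2824 and 2679 in ar21, 2574 and 2435 in i4g1, and 1789 and 1935 in WT. SAC52 rose by 0.56 ± 0.12 (adjusted p = 0.0092) and 0.43 ± 0.12 (adjusted p = 0.0249), and its i4g1 call was lost under 5 of 6 omissions, all but i4g1 2. RPL10B (AT1G26910), at 62.3 and 54.2 in ar21, 72.5 and 43.0 in i4g1, and 31.7 and 39.2 in WT, was not called.

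L17 and L23a lie at the tunnel exit, and L18a, L18 and L24 elsewhere on the subunit surface. RPL17A (AT1G27400) had 501 and 473 in ar21, 690 and 567 in i4g1, and 269 and 342 in WT, and rose by 0.68 ± 0.14 (adjusted p = 0.00884) and 1.04 ± 0.14 (adjusted p = 0.000488). The L23a genes, which encode the docking site of the signal recognition particle, rose by 0.76 (ATRPL23A, AT2G39460) and 0.62 (RPL23AB, AT3G55280) in ar21 and by 0.64 and 0.59 in i4g1. RPL18AC (AT3G14600) had 580 and 491 in ar21, 660 and 496 in i4g1, and 277 and 283 in WT, and rose by 0.93 ± 0.15 (adjusted p = 0.00192) and 1.03 ± 0.15 (adjusted p = 0.0006). The main L18a gene RPL18AB (AT2G34480) rose by 0.75 and 0.87. The L18 genes RPL18 (AT3G05590) and RPL18C (AT5G27850) rose by 0.62 and 0.75 in ar21 and by 0.59 and 0.56 in i4g1. STV1 (AT3G53020), an L24 gene known from a mutant with short valves and for reinitiation after upstream reading frames, rose by 0.52 ± 0.11 in ar21 (adjusted p = 0.0104), and by 0.35 ± 0.11 in i4g1 (adjusted p = 0.0458), a call that was lost whichever library was left out. RPL24A (AT2G36620) rose by 0.52 and 0.69. L10a forms the stalk on the opposite side of the subunit from P0, and its genes RPL10AA (AT1G08360), PGY1 (AT2G27530, known for a leaf polarity mutant) and RPL10AC (AT5G22440) rose by 0.83, 0.72 and 0.67 in ar21 and by 0.75, 0.48 and 0.71 in i4g1.

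Several of the largest rises were in genes of lower level, though in WT RPL35AC (272 per kb of exon) stood near RPL35AD (312) and RPL35AB (306). RPL34C had 420 and 380 in ar21, 622 and 490 in i4g1, and 157 and 258 in WT, and rose by 0.99 ± 0.20 in ar21 (adjusted p = 0.00687) and by 1.45 ± 0.20 in i4g1 (adjusted p = 0.00046). RPL35AC (AT1G74270) had 310 and 287 in ar21, 498 and 384 in i4g1, and 190 and 165 in WT, with rises of 0.75 ± 0.15 (adjusted p = 0.00627) and 1.30 ± 0.15 (adjusted p = 0.000169). For both genes the i4g1 libraries lay above the ar21 libraries and these above WT, but the difference between the lines was not called (adjusted p = 0.515 and 0.212). RPL13AC (AT4G13170), whose rise of 1.02 ± 0.22 was the largest in ar21 (adjusted p = 0.00923), had 81.4 and 74.7 in ar21, 68.2 and 54.2 in i4g1, and 34.1 and 42.0 in WT. Its call was lost without either ar21 library, and its i4g1 call (0.67 ± 0.22, adjusted p = 0.0462) under 5 of 6 omissions. RPL7A (AT1G80750), an L7 gene by its annotation, rose by 0.71 ± 0.20 in ar21 (adjusted p = 0.0319) and 1.05 ± 0.20 in i4g1 (adjusted p = 0.003).

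**Figure D4:**
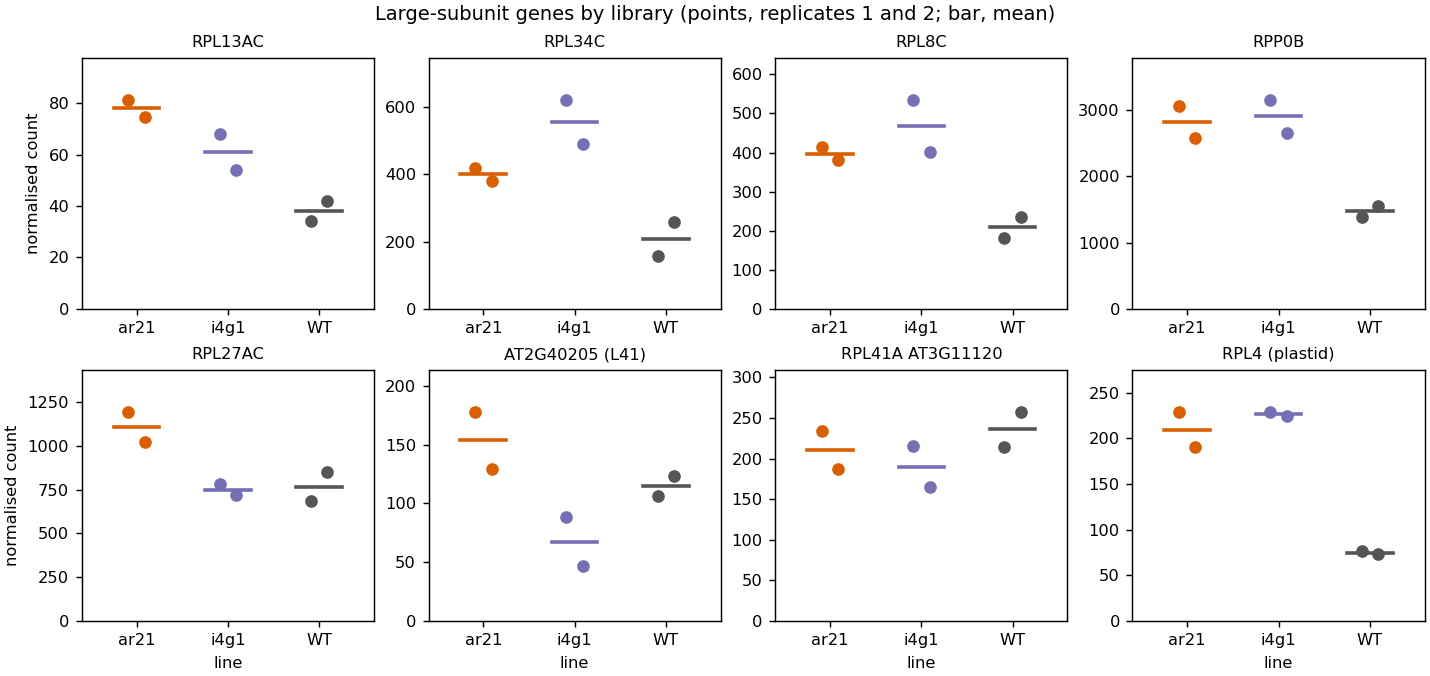
Normalised counts of 8 large-subunit genes by line (points, replicates 1 and 2; bars, means; each axis from 0). The upper row and RPL4 show mutant libraries above both WT libraries; RPL27AC stands at 1196 and 1020 in ar21, above the other lines, AT2G40205 is lowest in i4g1 at 88.3 and 46.4, and the lines overlap for AT3G11120.

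L41, a very short basic peptide, stood outside this pattern. Its 5 genes had log2 fold changes of -0.17 to 0.43 in ar21, none called. In i4g1, AT2G40205 fell, with 178 and 130 in ar21, 88.3 and 46.4 in i4g1, and 106 and 123 in WT (-0.83 ± 0.26 in i4g1, limma adjusted p = 0.0413). That call was kept under 1 of 6 omissions, that of i4g1 1, and was not made by edgeR or DESeq2. The difference of AT2G40205 between ar21 and i4g1, 1.23 ± 0.26, had an adjusted p of 0.102. The other L41 genes ranged from -0.32 to 0.44 in i4g1, and the family's summed level per kb of exon was 1.24-fold of WT in ar21 and 0.97-fold in i4g1. The coding sequences of L41 genes are 92.3% to 98.7% identical to their nearest paralog, so reads may have been split or dropped among them.

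L27a was the other family that overlapped with WT in i4g1. RPL27AC (AT1G70600) had 1196 and 1020 in ar21, 781 and 718 in i4g1, and 688 and 848 in WT. It rose by 0.53 ± 0.14 in ar21 (adjusted p = 0.0218) and was at -0.03 ± 0.14 in i4g1 (adjusted p = 0.906), where it overlapped with WT. RPL27A (AT1G23290) was at 0.39 and 0.05, with neither called. The direct difference of RPL27AC, 0.56 ± 0.14, had an adjusted p of 0.147. The L9 genes of the near-identical pair RPL9B (AT1G33120) and PGY2 (AT1G33140, known for a leaf polarity mutant) rose by 0.77 and 0.72 in ar21 and were at 0.28 and 0.44 in i4g1, not called. Their coding sequences are 99.1% identical, so the split of reads between them is uncertain, and the third L9 gene RPL9D (AT4G10450) rose by 0.90 ± 0.19 and 0.73 ± 0.19. In L35a, RPL35AC was called in both lines, while RPL35AB (AT1G41880) and RPL35AD (AT3G55750), 98.2% identical, were at 0.33 and 0.35 in ar21, not called, and rose by 0.63 and 0.69 in i4g1.

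Set directly against each other, ar21 and i4g1 had 0 of 83 cytosolic-type members called in either direction by limma, against 0.115% of all loci higher and 0.167% lower (0.282% in all). Before adjustment, 8 were higher and 7 lower in ar21 at p under 0.05, and edgeR and DESeq2 called none. Differences ran from -0.76 to 1.23 with a median of -0.03 and a median SE of 0.14, so the lines were not shown to be alike for single genes. Of the other large-subunit classes, 0 of 57 plastid, mitochondrial and unplaced members were called, and 2 were lower in ar21 before adjustment, with 0 called by edgeR or DESeq2.

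Per family, summed levels per kb of exon rose in step. The ratio to WT had a median of 1.63 in ar21 and 1.62 in i4g1 over 33 families. In ar21 it ran from 1.24 (L41) to 1.91 (L11, 1 gene under the annotation rule), and in i4g1 from 0.97 (L41) to 1.91 (P0). Both libraries lay above both WT libraries in 32 families for ar21, all but L41, and in 31 for i4g1, all but L41 and L27a. Of the single genes, the highest per kb in WT were emb2386 (AT1G02780, L19) at 1738 per kb, SAC52 at 1472, AT4G27090 (L14) at 1251, RPL18AB at 1244, AT1G67430 (L17) at 1186 and RPL31C (AT5G56710, L31) at 1122. They had 2565, 2175, 2229, 2089, 1738 and 1662 per kb in ar21 and 2756, 1980, 2120, 2271, 1892 and 2041 in i4g1. In WT, emb2386 stood apart from SAC52 and SAC52 from AT4G27090, while each later neighbour in this order overlapped with the one before it and did not differ from it beyond the spread.

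The division of a family's level among its paralogs was followed per kb of exon. In the 31 families with more than 1 member, the gene highest in WT carried 32.9% to 100% of the level in WT, with a median of 59.8%. The 100% was in L13, where the only other member, RPL13C, was listed at 0 in every library. In 29 of the 31 families its share in ar21 and in i4g1 lay within 5 percentage points of WT. This share did not overlap with WT in 13 of 31 families in ar21 and in 16 in i4g1. For the levels of all loci, 30.4% lay above and 28.5% below WT without overlap in ar21, and 31.0% and 29.2% in i4g1. Lack of overlap alone therefore does not show a shift in these shares. Of these leading genes the widest change was in L32, where RPL32A (AT4G18100) had 75.3% ± 0.68 in ar21, 77.2% ± 0.85 in i4g1 and 71.5% ± 0.28 in WT (SD, n = 2 libraries each). The other beyond 5 points was in L34, where RPL34 (AT1G69620) had 74.9% ± 1.03 in ar21, 71.6% ± 0.65 in i4g1 and 76.6% ± 4.74 in WT. Over all 88 genes of these families, 9 genes of 5 families changed by 5 points or more in a line, and the widest changes were in genes that did not lead in WT. RPL35AC carried 34.4% ± 1.09 of L35a in ar21, 38.5% ± 2.59 in i4g1 and 28.9% ± 4.79 in WT, and was the highest L35a gene in both ar21 and i4g1. AT1G56045 carried 22.6% ± 1.16 of L41 in ar21, 29.0% ± 0.66 in i4g1 and 20.7% ± 0.58 in WT, with the uncertainty of near-identical copies named above. RPL34C carried 14.4% ± 0.62 of L34 in ar21, 18.5% ± 1.24 in i4g1 and 12.2% ± 3.65 in WT. Among members under the annotation rule, L10 and P0 were carried almost wholly by SAC52 (97.8% in WT) and RPP0B (91.3% in WT).

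**Figure D5:**
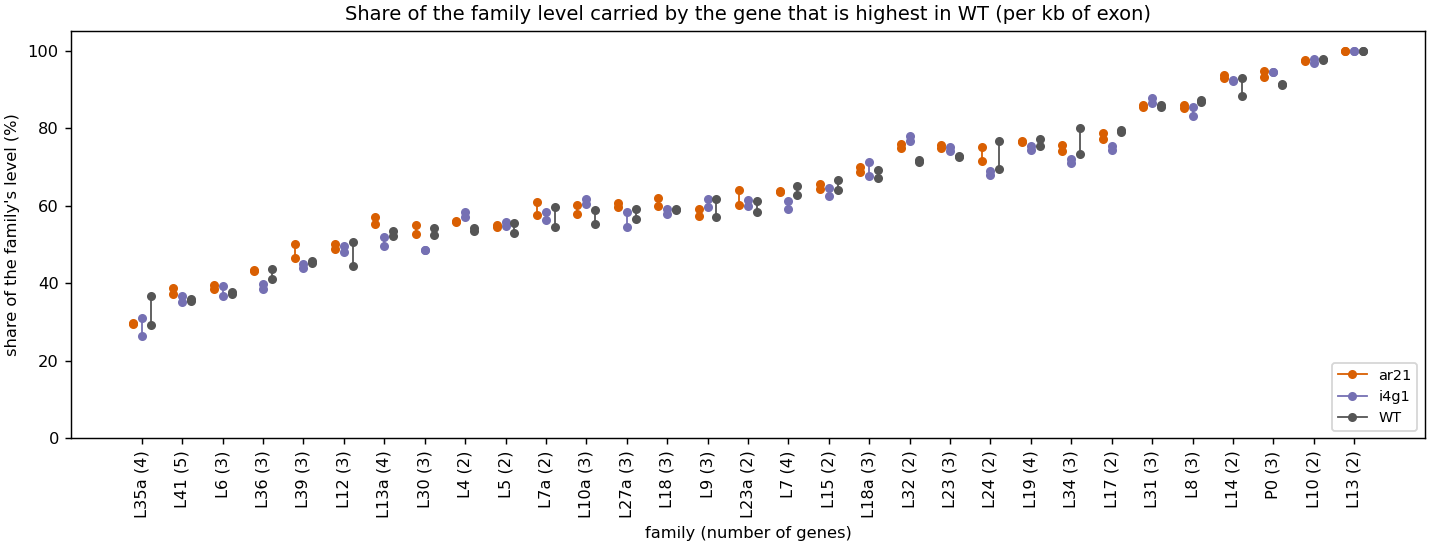
Share of each family's level per kb of exon (percent) carried by the paralog that is highest in WT, for the 31 cytosolic-type families with more than 1 member (number of genes in brackets), in ar21, i4g1 and WT (points, 2 libraries; lines join them). The shares run from 32.9% in L35a to 100% in L13 in WT. L13 has 2 members here, of which RPL13C was listed at 0 in every library. In 29 of the 31 families the shares in ar21 and i4g1 are within 5 points of WT. The other paralogs are not drawn, and any paralog outside the annotation rule is not counted.

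The 7 cytosolic-type members that failed the filter had almost no reads. RPL30A (AT1G36240), RPL27AA (AT1G12960), RPL13C (AT3G48960), RPL8B (AT3G51190) and AT4G16030 (L19) were listed at 0 in every library. AT2G47570 (L18) had 2.01 and 0.732 in ar21 and 0 in the other libraries, and AT4G26230 (L31) had 13.1 and 5.86 in ar21, 6.99 and 8.24 in i4g1, and 4.88 and 8.40 in WT. Their promoters held a telo-box in 5 of 7 cases and site II in 5 of 7.

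Plastid-type members had a larger median rise than the cytosolic type, a difference that was not tested. Of 20, 19 passed the filter, and 13 rose in ar21 and 18 in i4g1, against 8.76% and 12.5% of all loci. In either line 0 were lower, before adjustment or by edgeR or DESeq2. Medians were 0.93 and 1.04, and the 20 genes together took 0.103% and 0.0908% of nuclear reads in ar21, 0.0912% and 0.123% in i4g1, and 0.0491% and 0.0554% in WT. RPL4 (AT1G07320), plastid L4, had 229 and 190 in ar21, 229 and 224 in i4g1, and 76.8 and 72.8 in WT, and rose by 1.47 ± 0.15 (adjusted p = 0.00011) and 1.59 ± 0.15 (adjusted p = 5.41e-05). RPL12-A (AT3G27830), a stalk protein of the plastid ribosome, had 268 and 258 in ar21, 257 and 322 in i4g1, and 102 and 95.2 in WT, with rises of 1.40 ± 0.15 (adjusted p = 0.000138) and 1.53 ± 0.15 (adjusted p = 6.15e-05). AT4G17560, an L19 gene, rose by 1.38 ± 0.27 (adjusted p = 0.00573) and 1.71 ± 0.27 (adjusted p = 0.00108). AT2G43030, plastid L3 that the table calls RPL3A, rose by 1.29 ± 0.15 and 1.34 ± 0.15. RPL12-B (AT3G27840) was listed at 0 in every library, and RPL3P (AT3G17465) was at 0.18 and 0.30, not called.

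The ar21 count of plastid-type members was lower without ar21 1. It was also lower by edgeR and DESeq2, which left out that library too. In i4g1 13 to 18 were called whichever library was left out, and 18 by edgeR and 13 by DESeq2. Markers of green leaf tissue were higher in i4g1 and mixed in ar21. Of 4 (RBCS1A, RCA, CA1, RBCS-1B), 1 was called higher in ar21 (RBCS1A) and 4 in i4g1. In ar21 RCA lay above WT and was not called, and CA1 overlapped with WT. RBCS-1B had 14.1 and 11.7 in ar21, below both WT libraries at 23.2 and 30.8, and was not called. The summed level of the 4 was 9885 and 9016 in ar21, 12568 and 13462 in i4g1, and 5062 and 5987 in WT. RBCS1A made up most of this sum, with 9478 and 8678 in ar21 and 4800 and 5727 in WT. None of the 4 was at 0 in any library. CA1 had 24.1 and 16.8 in ar21, 115 and 415 in i4g1, and 32.9 and 22.4 in WT, and i4g1 2, with the highest marker level, also had the highest share of plastid-type reads. The part of these markers in the plastid-type rise was not tested. While the nuclear genes rose, transcripts of the plastid genome itself were lower, with a median of -1.41 in ar21 and -2.41 in i4g1 over 82 tested loci.

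The mitochondrial and unplaced members were called about as often as loci in general, though a larger share of them lay above WT. Of 45, 38 passed the filter, and 4 rose in ar21 (10.5%, against 8.76% of all loci) and 6 in i4g1 (15.8%, against 12.5%), with 0 lower before adjustment, by edgeR or by DESeq2. Medians were 0.23 and 0.32, and the 4 called in ar21 were also called in i4g1. All 4 mutant libraries lay above both WT libraries for 18 of 38 members (47.4%), against 22.7% of all loci. Without overlap, 20 lay above and 1 below WT in ar21, against 30.4% and 28.5% of all loci. The counts in i4g1 were 22 and 2, against 31.0% and 29.2%. AT5G46160, of the bacterial L14 family, had 164 and 173 in ar21, 195 and 184 in i4g1, and 102 and 89.6 in WT, and rose by 0.81 ± 0.15 (adjusted p = 0.00376) and 0.98 ± 0.15 (adjusted p = 0.000801). AT3G12370 (L10 family) rose by 0.77 and 1.00, AT4G11630 (L19 family) by 0.70 and 0.81 and AT3G01790 (L13 family) by 0.65 and 0.63. No call in ar21 was kept under all 6 omissions (0 were called without ar21 2, 1 without ar21 1, 2 without WT 2 and 7 without WT 1), and 3 of the 6 in i4g1 were. HLL (AT1G17560), whose loss arrests ovule growth, stayed below the filter with 11.1 and 12.4 in ar21, 5.24 and 7.38 in i4g1, and 3.66 and 2.80 in WT.

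Among the 24 remaining matches, 22 were tested, 5 rose in ar21 and 5 rose and 1 fell in i4g1. Of all loci, 8.76% were called higher in ar21, and 12.5% higher and 9.86% lower in i4g1. The S12 genes RPS12A (AT1G15930) and RPS12C (AT2G32060), which belong to the small subunit, rose by 0.72 and 0.78 in ar21 and by 0.70 and 0.47 in i4g1. AT5G15260, of the L34e superfamily, fell in i4g1 (-0.45 ± 0.14, adjusted p = 0.0427), a call lost under every omission. Small-subunit genes, set beside for scale and not sorted by compartment, had 54 of 83 tested higher in ar21 and 51 in i4g1. Of them 0 and 1 were lower, and the medians were 0.64 and 0.57. All large-subunit members without an organelle word had 86 of 155 tested higher in ar21 and 92 in i4g1, with medians of 0.58 and 0.62. Of 21 genes for assembly of the large subunit, 2 rose in ar21 (9.52%, against 8.76% of all loci) and 10 in i4g1 (47.6%, against 12.5%). The difference between the lines was called for 0 of 21, with 2 lower in ar21 before adjustment, and for 0 by edgeR and DESeq2. NAP57 (AT3G57150), the rRNA pseudouridine synthase, rose by 0.88 ± 0.15 (adjusted p = 0.00251) and 1.13 ± 0.15 (adjusted p = 0.000354), and NOP5-2 (AT3G05060), a core box C/D particle protein, by 0.82 and 1.01. The i4g1 count was 3 without i4g1 1, 4 without WT 1, and 5 without ar21 1, ar21 2 or i4g1 2. Of 5 genes of TOR signalling, the kinase pathway that promotes ribosomal protein synthesis, only ATPK1 (AT3G08730, an S6 kinase) was called. It fell in ar21 (-0.77 ± 0.20, adjusted p = 0.0262) and was at -0.60 ± 0.20 in i4g1 (adjusted p = 0.054).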

How the data were processed

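RNA-seq of 6 libraries (3 lines, 2 each) was used as deposited. Per the submitters' processing notes, STAR 2.4.0j, StringTie 1.0.3, HTSeq 0.6.0, DESeq2 1.12.4 and TAIR10 were used. The deposited values are a signal: read counts that the authors divided by 1 size factor per library. Since the unit is not raw counts, limma 3.58.1 (R 4.3.3) on log2(value + 1) with an intensity trend replaced the count test, over all 3 lines, for loci with a mean of at least 10, with Benjamini-Hochberg adjustment at 0.05. Dividing by the smallest step gave whole reads for 100% of values (tolerance 0.001), assuming that this step is 1 read. On these reads edgeR 4.0.16 was run without ar21 1, and it called 2757 loci in i4g1 against WT. DESeq2 1.42.0, also without ar21 1, was a further alternative. The fit was tested on simulated data. Promoters came from RefSeq (TAIR10.1), matched by locus for all 179 members, with Python 3.11.15, Biopython 1.88 and scipy 1.17.1.

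The members, classes and lists were chosen with earlier results of these data known. Named are the 8 cytosolic-type and 4 organelle-type members with the largest called, non-overlapping change each way per line, the 6 highest per kb in WT, and the families L3, L4, L5, L8, L9, L10, L10a, L18, L23a, L24, L27a and L28 (L3 and L28 have no cytosolic-type member under the annotation rule). For assembly and signalling lists, up to 3 called genes were eligible. Other named members were chosen after their values were seen. P-values measure only the spread between these libraries, which may be technical.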

Additional observations from a re-analysis of the deposited data

How the results depend on the processing

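No called result against WT changed direction under the alternatives run, but counts of calls moved. Cytosolic-type calls in ar21 against WT were 65 in limma, 5 without an intensity trend, 14 with edgeR and 10 with DESeq2, and 10 to 66 when 1 library was left out; the lone library left is then assumed to vary like the others. Plastid, mitochondrial and unplaced calls in ar21 were 17, against 6, 7 and 3 in those 3 fits and 5 to 19 with 1 library left out. Calls over all loci in ar21 were 2305, against 675, 682 and 365, and 522 to 2377. In i4g1 against WT, cytosolic-type calls were 65, against 31 without a trend and 48 to 65 with 1 library left out, organelle-type calls were 24, against 14 with DESeq2, and calls over all loci were 3489, against 1778 without a trend, 1285 with DESeq2 and 2046 to 3183. Between ar21 and i4g1, 44 loci were called, against 2 with no filter, 0 without a trend, 2 with edgeR, 7 with DESeq2 and 2 to 158, and cytosolic-type calls were 0 to 1, with 1 (AT2G40205) without i4g1 1. The causes were not tested. Scaling by the nuclear total gave 1439 loci higher and 1825 lower in i4g1, against 1952 and 1537. In the 250 bases before the start alone, the telo-box, site II and TATA box were in 25.6%, 58.9% and 50% of promoters, and without dividing by length the highest paralog's median share was 62.9%.

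With the replicate number as a block, cytosolic-type calls were 66 in ar21 and 65 in i4g1 against WT, and 1 between the lines, where 81 loci were called. Deviations of same-numbered libraries correlated at -0.08 for ar21 and WT, -0.03 for i4g1 and WT, and 0.12 for ar21 and i4g1. Such correlations cannot show whether same-numbered libraries were grown or prepared together, and the labels do not say.

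For the 39 named members called in ar21, the call was kept in 514 of 663 combinations of member and setting and lost in 149, and for the 37 called in i4g1 it was kept in 555 of 629 and lost in 74. WT 2 had the fewest reads, 1344947 without 18S rRNA.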
